A study of Mus musculus with 12 samples.

Results

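The SLC25 family comprises the mitochondrial carriers, small membrane proteins encoded in the nucleus that move metabolites, nucleotides, cofactors and ions across the inner mitochondrial membrane. The genes were taken by name, as every protein-coding gene of the count table whose symbol is Slc25a followed by digits. This gave 46 genes among 61210 in the table, of which 20595 are protein-coding, and 40 of the 46 had enough counts to be tested among 16737 tested genes. The other 6, Slc25a18, Slc25a21, Slc25a31, Slc25a41, Slc25a43 and Slc25a54, never exceeded 38 counts in a library, and Slc25a54 was at 0 counts in all 12 libraries. A count of 0 allows up to 3 counts in that library.

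Total RNA was sequenced from the iBAT of wild type C57BL/6N mice aged 20 weeks. iBAT stands for interscapular brown adipose tissue in the study's methods. The 4 groups of 3 libraries were mice on normal chow diet (NCD) at 22 °C, NCD with 24 h at 4 °C, high-fat diet (HFD) at 22 °C, and HFD with 24 h at 4 °C. HFD was given for 12 weeks from 8 weeks of age, no transgene or deletion was carried by any group, and the design asks how diet and cold each change brown fat. The labels do not say that the libraries of a group came from separate animals, so p-values measure the spread between libraries.

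Libraries held between 15136861 and 46740702 counts. Replicates 1 and 2 of each group belonged to batch 1 and replicate 3 to batch 2. The tissue label was checked against 10 brown adipocyte markers, whose summed level lay between 12907 and 16780 CPM (counts scaled by library size) at 22 °C and between 21249 and 33189 CPM at 4 °C. In each group 1 library stood apart in 12 skeletal muscle markers, namely replicate 2 of both NCD groups and replicate 3 of both HFD groups, with 5963 to 18782 CPM in sum against 685 to 3550 CPM in the other 8. Bulk tissue cannot tell fewer cells of a type from less RNA per cell.

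As background, a carrier has a repeated fold and works by exposing its binding site to either side of the membrane in turn, most often exchanging one substrate for another. Brown adipocytes burn fatty acids in densely packed mitochondria and release the energy as heat through Ucp1, which is itself a member of this family by structure but not by name. Carriers for acylcarnitine feed that oxidation, whereas the citrate carrier serves the opposite direction, the export of acetyl units for fatty acid synthesis.

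The promoters of carriers that differed among the 4 groups are shown because these genes moved in different directions under the same treatments. The sequences are the 250 bases before the RefSeq start (GRCm38.p6), read 5′ to 3′ on the strand of the gene. Capitals mark matches, on either strand, to the GC box with the letters GGGCGG, to the CCAAT box, or to the nuclear receptor half-site with the letters AGGTCA.
Slc25a1: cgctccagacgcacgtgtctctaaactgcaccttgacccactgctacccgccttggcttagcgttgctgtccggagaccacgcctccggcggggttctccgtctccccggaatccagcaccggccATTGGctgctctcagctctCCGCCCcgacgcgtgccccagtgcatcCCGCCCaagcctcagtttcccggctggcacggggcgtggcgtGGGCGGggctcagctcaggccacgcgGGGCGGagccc
Slc25a10: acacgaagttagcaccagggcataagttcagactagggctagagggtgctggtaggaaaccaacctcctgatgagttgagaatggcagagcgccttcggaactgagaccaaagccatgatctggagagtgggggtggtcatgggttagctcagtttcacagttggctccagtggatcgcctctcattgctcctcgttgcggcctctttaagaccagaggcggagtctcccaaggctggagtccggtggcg
Slc25a34: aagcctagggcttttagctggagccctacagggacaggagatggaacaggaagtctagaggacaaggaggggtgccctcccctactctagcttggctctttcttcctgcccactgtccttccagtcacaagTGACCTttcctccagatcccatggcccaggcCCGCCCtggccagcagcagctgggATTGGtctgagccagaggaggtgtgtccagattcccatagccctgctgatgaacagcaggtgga

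These windows lie at chr16:17928220-17928469 on the minus strand (Slc25a1), chr11:120491587-120491836 on the plus strand (Slc25a10) and chr4:141623835-141624084 on the minus strand (Slc25a34), just upstream of each gene's annotated start. The Slc25a1 window held 4 GC boxes and 1 CCAAT box and was 70.0% G and C, that of Slc25a10 held no match and was 56.0% G and C, and that of Slc25a34 held 1 match to each motif at 58.4% G and C. Slc25a17 held 1 GC box and 1 CCAAT box in a window that runs into its GENCODE first exon and is not printed, and Slc25a32 was not matched in the promoter table. GC boxes were found in 32.7% of 32851 promoters of this length and in 69.6% of the 46 promoters of 36 matched carriers. CCAAT boxes were found in 33.8% of all and 45.7% of carrier promoters, and AGGTCA in 14.0% and 8.70%. Such matches are a description of letters and not of bound sites.

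Per kilobase of merged exons, a few carriers made up most of the family's summed level, and the 6 highest of each group held 63.6% to 70.7% of it. Averaged over the groups, Slc25a5 (ANT2, which exchanges ADP for ATP) stood at 262 CPM per kb, Slc25a1 (the citrate carrier) at 258, Slc25a4 (ANT1) at 195, Slc25a20 (the carnitine-acylcarnitine carrier) at 162, Slc25a51 (the mitochondrial NAD+ carrier) at 147 and Slc25a39 (needed for glutathione import) at 144. These levels per length do not separate neighbours such as Slc25a51 and Slc25a39, whose ranges over the groups overlap.

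The summed level of the 46 genes was 1928 ± 24.5 CPM per kb on NCD at 22 °C, 1952 ± 144 on NCD at 4 °C, 1585 ± 38.5 on HFD at 22 °C and 1556 ± 121 on HFD at 4 °C (mean ± SD, n = 3 each). All NCD libraries exceeded all HFD libraries in this sum, and the temperatures overlapped within each diet. Without Slc25a1 the sums were 1412 ± 60.3, 1720 ± 86.6, 1359 ± 12.6 and 1497 ± 111 CPM per kb in the same order, with the diets overlapping at 22 °C and apart at 4 °C. The cold libraries on NCD then lay above those at 22 °C, and on HFD the temperatures overlapped. The order of the carriers changed with Slc25a1. It was the highest of the family on NCD at 22 °C, at 516 ± 54.8 CPM per kb, and no longer among the 6 highest on HFD at 4 °C, at 59.0 ± 9.95 CPM per kb.

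**Figure D1:**
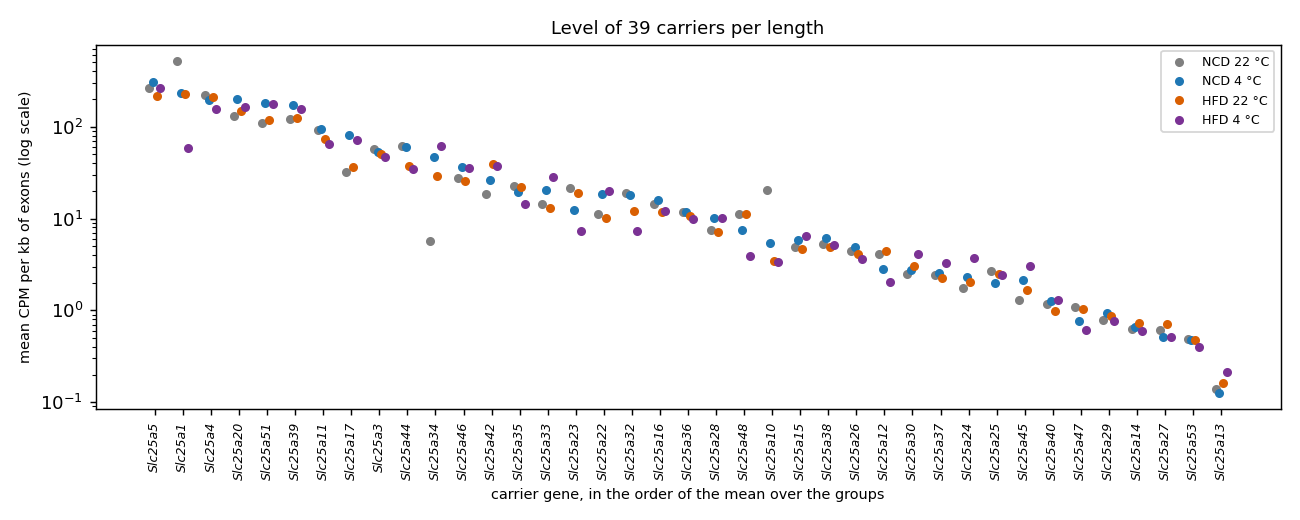
Mean CPM per kb of merged exons (log scale, n = 3 libraries a group) for 39 of the tested carriers, ordered by the mean over the groups, with 1 point per group in its colour. Levels run from 262 CPM per kb for Slc25a5 down to 0.160 for Slc25a13, and Slc25a1 and Slc25a34 show the widest vertical spread between groups.

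Across the 4 groups, 5 carriers differed at an adjusted p under 0.001, namely Slc25a1, Slc25a10, Slc25a17, Slc25a32 and Slc25a34. That is 5 of 40, where the same test called 2.55% of all tested genes. Both carboxylate carriers fell under cold or diet, the peroxisomal cofactor carrier Slc25a17 rose with cold, the folate carrier Slc25a32 was lowest on HFD in the cold, and Slc25a34 rose with either challenge. In pairwise comparisons, called where the adjusted p was under 0.05 and the log2 fold change beyond 0.5 in either direction, 16 of 40 carriers were called at least once, where 15.5% of all tested genes were, and 24 in none. Slc25a1 was the only carrier called in all 4 comparisons, with 7 called in 2 of them and 8 in 1. The 4-group count was 2 or 3 without any 1 library, except 4 without replicate 3 of NCD at 4 °C. Comparisons that share a group share its libraries, so their counts are not independent of each other.

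**Figure D2:**
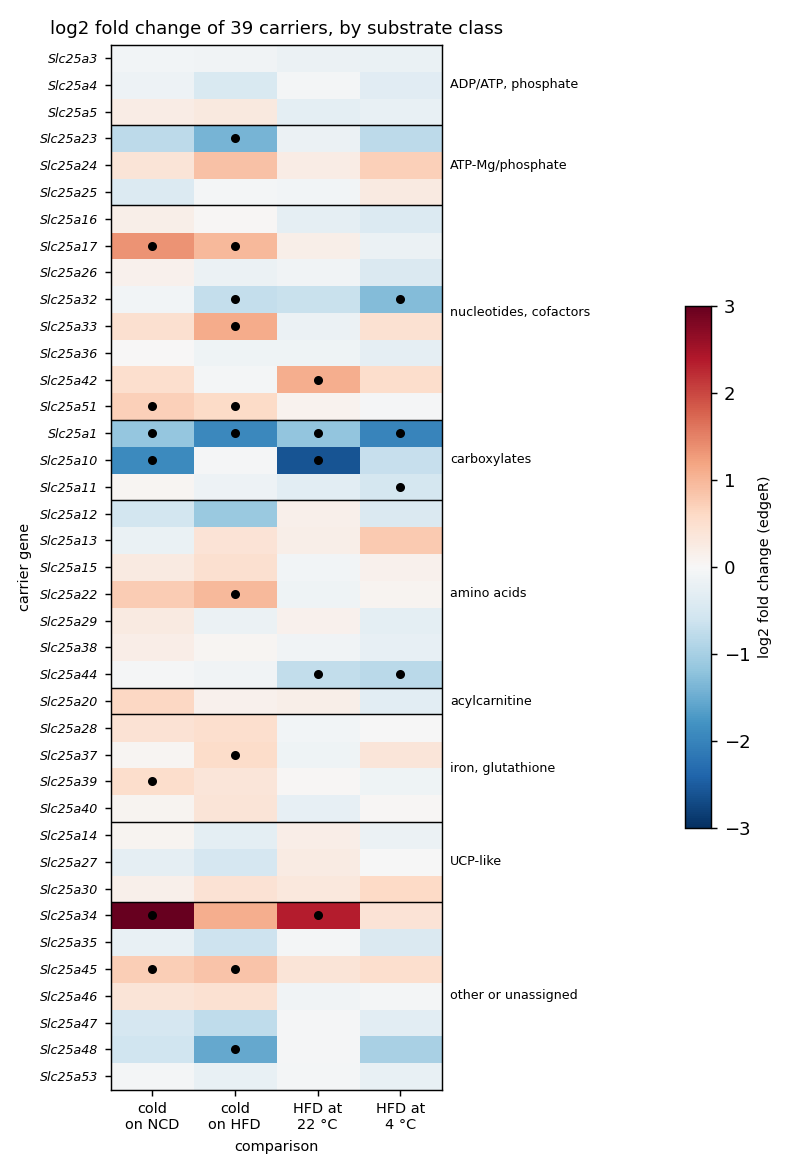
Colour gives the log2 fold change (edgeR, from blue for lower to red for higher) of 39 carriers, grouped by substrate class, in the 4 comparisons, with a black dot where the change was called. Slc25a1 is called in all 4 columns, Slc25a34 reaches 3.05 for cold on NCD, and no ADP/ATP, phosphate or UCP-like carrier is called.

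Among the carboxylate carriers, Slc25a1 exports citrate to the cytosol, where ATP citrate lyase (Acly) cleaves it to acetyl-CoA. Its level was 1158, 983 and 1209 CPM on NCD at 22 °C, 468, 383 and 654 CPM on NCD at 4 °C, 603, 452 and 408 CPM on HFD at 22 °C, and 103, 137 and 143 CPM on HFD at 4 °C. Each NCD 22 °C library was above all others, each HFD 4 °C library was below all others, and the cold NCD and 22 °C HFD groups overlapped. Cold lowered it by a log2 fold change of -1.15 ± 0.22 (SE) on NCD and -1.93 ± 0.22 on HFD (edgeR quasi-likelihood test, Benjamini-Hochberg adjusted p = 0.0100 and 6.93e-04). HFD lowered it by -1.19 ± 0.22 at 22 °C and -1.97 ± 0.22 at 4 °C (adjusted p = 0.0175 and 0.00126 in the same test). From NCD at 22 °C to HFD at 4 °C the group means differed 8.74-fold.

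Acly itself was at 8864 ± 1503 CPM on NCD at 22 °C, 6716 ± 1944 on NCD at 4 °C, 3784 ± 1445 on HFD at 22 °C and 335 ± 125 on HFD at 4 °C (mean ± SD, n = 3 each). It was called lower for cold on HFD (log2 fold change -3.50 ± 0.36) and for HFD in the cold (-4.32 ± 0.37), as was Slc25a1. For cold on NCD and for HFD at 22 °C, Slc25a1 was called lower and Acly was not called.

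Slc25a10 exchanges dicarboxylates such as malate and succinate for phosphate. It was at 79.0, 67.0 and 67.8 CPM on NCD at 22 °C, 20.2, 15.1 and 21.1 CPM on NCD at 4 °C, 16.1, 10.1 and 9.69 CPM on HFD at 22 °C, and 8.01, 7.09 and 19.5 CPM on HFD at 4 °C. The NCD 22 °C libraries stood clear of the rest, and the other groups ran into each other. It fell with cold on NCD (log2 fold change -1.92 ± 0.35, adjusted p = 0.00855, edgeR) and with HFD at 22 °C (-2.58 ± 0.36, adjusted p = 0.00534). On HFD the cold contrast was -0.04 ± 0.34 (adjusted p = 0.959), and HFD in the cold gave -0.69 ± 0.34 (adjusted p = 0.254).

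Slc25a11, the oxoglutarate/malate carrier of the malate-aspartate shuttle, moved much less. Its levels were 204, 195 and 181 CPM on NCD at 22 °C, 191, 196 and 213 CPM on NCD at 4 °C, 158, 146 and 159 CPM on HFD at 22 °C, and 111, 148 and 154 CPM on HFD at 4 °C. All 6 HFD libraries lay below all 6 NCD libraries. The fall passed the test in the cold (-0.53 ± 0.12, adjusted p = 0.0325, edgeR) and was -0.33 ± 0.12 at 22 °C (adjusted p = 0.190). The oxodicarboxylate carrier Slc25a21 was too low to test.

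Of the carriers of nucleotides and cofactors, 9 were tested. Slc25a17, which sits in the peroxisomal membrane and carries CoA, FAD and NAD+, rose with cold on both diets. It was at 95.6, 87.8 and 91.7 CPM on NCD at 22 °C and 232, 212 and 256 CPM on NCD at 4 °C. On HFD it was at 122, 89.8 and 100.4 CPM at 22 °C and 189, 198 and 229 CPM at 4 °C. Every cold library lay above every 22 °C library. The log2 fold change with cold was 1.35 ± 0.13 on NCD (adjusted p = 4.25e-04, edgeR) and 0.98 ± 0.13 on HFD (adjusted p = 0.00129).

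Slc25a51, which brings NAD+ into the matrix, rose in the same comparisons from a higher level. It was at 550.4, 669.8 and 611 CPM on NCD at 22 °C, 1032, 1011 and 958 CPM on NCD at 4 °C, 634, 738 and 589.7 CPM on HFD at 22 °C, and 945, 1082 and 893 CPM on HFD at 4 °C. Again no cold library overlapped a 22 °C library. Its log2 fold change was 0.71 ± 0.12 on NCD (adjusted p = 0.00734) and 0.57 ± 0.12 on HFD (adjusted p = 0.0136, edgeR).

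Slc25a32, linked to folate and FAD transport, was lowered most where HFD and cold met. It was at 105, 127 and 116 CPM on NCD at 22 °C, 103, 86.8 and 141 CPM on NCD at 4 °C, 79.9, 76.1 and 63.1 CPM on HFD at 22 °C, and 46.5, 42.0 and 45.9 CPM on HFD at 4 °C. The HFD cold libraries were below all others, and every HFD library was below every NCD library. It fell with cold on HFD (-0.70 ± 0.16, adjusted p = 0.0197) and with HFD in the cold (-1.30 ± 0.17, adjusted p = 0.00225, edgeR). At 22 °C HFD gave -0.67 ± 0.16 (adjusted p = 0.0605).

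Slc25a33, a pyrimidine nucleotide carrier, was at 21.8, 28.4 and 31.9 CPM on NCD at 22 °C, 34.9, 37.5 and 43.0 CPM on NCD at 4 °C, 20.5, 27.4 and 25.3 CPM on HFD at 22 °C, and 43.6, 49.0 and 65.9 CPM on HFD at 4 °C. The cold libraries of each diet lay above those at 22 °C. The rise passed the test on HFD (1.11 ± 0.19, adjusted p = 0.00430, edgeR) and was 0.49 ± 0.18 on NCD (adjusted p = 0.140, and 0.0363 with the replicate block). The other pyrimidine nucleotide carrier, Slc25a36, lay between 84.7 and 120 CPM in all libraries and was not called.

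Slc25a42 imports CoA. Its level was 94.4, 119 and 120.1 CPM on NCD at 22 °C, 189, 169 and 112 CPM on NCD at 4 °C, 239, 236 and 233 CPM on HFD at 22 °C, and 250.2, 251 and 177 CPM on HFD at 4 °C. The HFD 22 °C libraries were all above those of NCD at 22 °C, whereas the cold groups of the diets overlapped. HFD raised it at 22 °C (1.09 ± 0.19, adjusted p = 0.0167, edgeR), and the contrast in the cold was 0.53 ± 0.19 (adjusted p = 0.131). Slc25a16, also linked to CoA, and the S-adenosylmethionine carrier Slc25a26 were lower on HFD in the cold by -0.42 each (adjusted p = 0.0409 and 0.0330), which is under the minimum fold.

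Of 7 tested amino acid carriers, 1 was called in each comparison other than cold on NCD. Slc25a22 was called higher for cold on HFD, where 5.39% of all tested genes were. Slc25a44 was called lower for HFD at 22 °C and at 4 °C, where 1.09% and 2.69% of all tested genes were. Slc25a44, a carrier of branched-chain amino acids, was at 203, 238 and 224 CPM on NCD at 22 °C, 209.8, 190.2 and 250.5 CPM on NCD at 4 °C, 145, 154 and 101 CPM on HFD at 22 °C, and 124, 127 and 119 CPM on HFD at 4 °C. Each HFD library was below each NCD library, and cold made no called difference. HFD gave -0.73 ± 0.16 at 22 °C (adjusted p = 0.0385) and -0.81 ± 0.16 at 4 °C (adjusted p = 0.0158, edgeR).

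The glutamate carrier Slc25a22 was at 64.4, 76.4 and 58.6 CPM on NCD at 22 °C, 104, 134 and 97.6 CPM on NCD at 4 °C, 61.7, 73.7 and 45.9 CPM on HFD at 22 °C, and 148, 122 and 87.8 CPM on HFD at 4 °C. All cold libraries lay above all 22 °C libraries. Cold gave 0.98 ± 0.22 on HFD (adjusted p = 0.0158, edgeR) and 0.75 ± 0.22 on NCD, where the call depended on the model (adjusted p = 0.0590, and 0.00697 once replicates were blocked within diet). The ornithine carrier Slc25a15 was at 23.9, 29.1 and 29.6 CPM on NCD at 22 °C, 33.7, 28.6 and 37.4 CPM on NCD at 4 °C, 23.4, 27.2 and 27.1 CPM on HFD at 22 °C, and 31.5, 37.4 and 40.3 CPM on HFD at 4 °C. With cold on HFD it gave 0.49 ± 0.14 (adjusted p = 0.0421), just under the minimum fold. Slc25a12 (aralar) was called only with the replicate block within diet, for cold on HFD (-0.86, adjusted p = 0.0151, against 0.459 without it). Slc25a13 (citrin), the basic amino acid carrier Slc25a29 and the glycine carrier Slc25a38 were not called.

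Slc25a20, the acylcarnitine carrier, was at 687, 652 and 581 CPM on NCD at 22 °C, 967, 929 and 1046 CPM on NCD at 4 °C, 755, 836 and 576 CPM on HFD at 22 °C, and 633, 968 and 772 CPM on HFD at 4 °C. The NCD groups did not overlap and the HFD groups did. With cold it gave 0.62 ± 0.17 on NCD (adjusted p = 0.0533, edgeR), which passed with the replicate block (adjusted p = 0.0333), and 0.13 ± 0.17 on HFD. The difference between those contrasts was -0.48 ± 0.24 (adjusted p = 0.788). Of the enzymes beside it, Cpt1a, which makes acylcarnitine at the outer membrane, was called higher in all 4 comparisons (0.74 and 1.15 with cold on NCD and HFD, 0.84 and 1.26 with HFD at 22 °C and 4 °C). Cpt1b (0.77) and Crat (0.59) were called with cold on NCD.

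Mitoferrins and glutathione carriers made small moves. Slc25a39 was at 358, 333 and 308 CPM on NCD at 22 °C, 436, 467 and 530.2 CPM on NCD at 4 °C, 371, 377 and 270.3 CPM on HFD at 22 °C, and 415, 462 and 424 CPM on HFD at 4 °C. Cold libraries lay above those at 22 °C within each diet, with a called rise on NCD (0.52 ± 0.14, adjusted p = 0.0434, edgeR) and 0.35 ± 0.14 on HFD (adjusted p = 0.123). Slc25a37 (mitoferrin 1, an iron importer) was between 12.96 and 15.99 CPM in all 9 libraries of the other groups and at 24.2, 17.6 and 17.6 CPM on HFD at 4 °C. Cold raised it on HFD (0.55 ± 0.14, adjusted p = 0.0274), and on NCD gave 0.07 ± 0.14. Erythroid markers, which can accompany mitoferrin 1, lay between 794 and 1774 CPM in sum without a call for cold. Their log2 fold changes with cold on HFD were positive for 5 of 5 (median 0.32), as was that of Slc25a37, and on NCD for 1 of 5 (median -0.09), and their part in its change was not tested. Mitoferrin 2 (Slc25a28) was at 35.0, 26.3 and 24.0 CPM on NCD at 22 °C, 37.8, 37.1 and 39.7 CPM on NCD at 4 °C, 30.3, 28.1 and 21.9 CPM on HFD at 22 °C, and 48.3, 29.1 and 36.8 CPM on HFD at 4 °C. It gave 0.43 ± 0.20 and 0.51 ± 0.20 with cold (adjusted p = 0.227 and 0.116), and Slc25a40 lay between 6.90 and 12.2 CPM without a call.

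**Figure D3:**
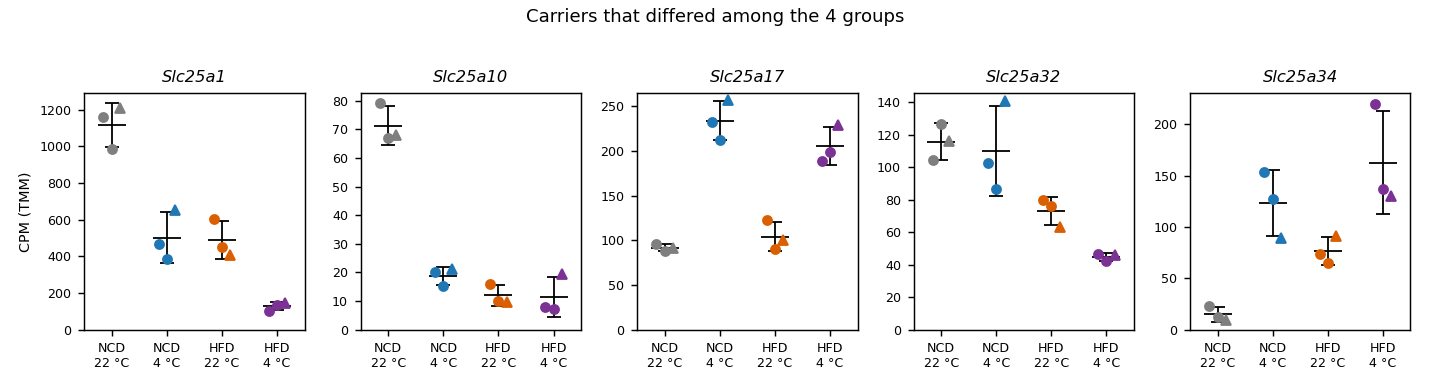
CPM (TMM-scaled, linear axis from 0) of the 5 carriers that differed among the 4 groups, with 1 point per library (circles for batch 1, triangles for batch 2) and the mean ± SD of 3 libraries. Slc25a1 runs from 1116 CPM on NCD at 22 °C to 128 CPM on HFD at 4 °C, while Slc25a34 runs from 15.04 to 163 CPM.

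The largest rise in the family belonged to Slc25a34, whose substrate is not settled. It was at 23.5, 12.0 and 9.62 CPM on NCD at 22 °C, 153, 127 and 89.5 CPM on NCD at 4 °C, 73.9, 64.6 and 91.4 CPM on HFD at 22 °C, and 220.2, 138 and 131 CPM on HFD at 4 °C. The NCD 22 °C libraries were below all others and the HFD 22 °C libraries below all HFD cold ones. Cold raised it 8.26-fold on NCD (log2 fold change 3.05 ± 0.35, adjusted p = 8.38e-04, edgeR) and HFD raised it 5.13-fold at 22 °C (2.36 ± 0.34, adjusted p = 0.00698). Cold on HFD gave 1.09 ± 0.33 (adjusted p = 0.0539, and 0.00982 with the replicate block), and HFD in the cold gave 0.40 ± 0.32 (adjusted p = 0.518).

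Its close relative Slc25a35 was at 97.04, 86.6 and 65.9 CPM on NCD at 22 °C, 81.4, 76.1 and 55.3 CPM on NCD at 4 °C, 98.1, 90.4 and 52.0 CPM on HFD at 22 °C, and 46.8, 74.7 and 35.4 CPM on HFD at 4 °C. The groups overlapped, and for cold on HFD it was called with the replicate block within diet (-0.63, adjusted p = 0.0193) but not without it (-0.62 ± 0.30, adjusted p = 0.204). Slc25a45, a little-expressed carrier, was at 3.48, 3.6 and 3.58 CPM on NCD at 22 °C, 6.08, 6.18 and 5.56 CPM on NCD at 4 °C, 5.15, 5.12 and 3.70 CPM on HFD at 22 °C, and 8.42, 7.40 and 9.49 CPM on HFD at 4 °C. It rose with cold on both diets (0.74 ± 0.17 and 0.86 ± 0.17, adjusted p = 0.0244 and 0.00863, edgeR), with no overlap within a diet. Slc25a48, linked to choline transport, fell with cold on HFD, from 54.6, 34.5 and 23.2 CPM to 14.7, 15.1 and 9.25 CPM (-1.52 ± 0.29, adjusted p = 0.00758). On NCD it was at 30.5, 45.2 and 38.3 CPM at 22 °C and 27.3, 23.0 and 25.5 CPM at 4 °C (-0.59 ± 0.28, adjusted p = 0.255). Slc25a46, an outer membrane protein of mitochondrial dynamics, was at 157, 146 and 151 CPM on NCD at 22 °C, 207, 186 and 205 CPM on NCD at 4 °C, 145, 144 and 131 CPM on HFD at 22 °C, and 194, 199 and 183 CPM on HFD at 4 °C. No cold library overlapped a 22 °C library, and cold gave 0.40 ± 0.09 and 0.45 ± 0.09 (adjusted p = 0.0202 and 0.00827), under the minimum fold. Slc25a47 and Slc25a53 stayed under 5 CPM. Slc25a53 was not called, and Slc25a47 gave -0.76 ± 0.24 with cold on HFD (adjusted p = 0.0609, and 0.0497 with the replicate block).

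The calcium-regulated ATP-Mg/phosphate carriers differed among themselves. Slc25a23 was at 143, 118 and 80.7 CPM on NCD at 22 °C, 81.6, 71.9 and 44.4 CPM on NCD at 4 °C, 124, 108 and 71.9 CPM on HFD at 22 °C, and 36.2, 55.0 and 24.4 CPM on HFD at 4 °C. In every group replicate 3, from batch 2, was the lowest. It fell with cold on HFD (-1.40 ± 0.33, adjusted p = 0.0220, edgeR) and gave -0.79 ± 0.33 on NCD (adjusted p = 0.187, and 0.0137 with the replicate block). Slc25a24 gave 0.88 ± 0.26 with cold on HFD (adjusted p = 0.0512, and 0.0176 with the block), from 7.34, 5.75 and 7.74 CPM to 15.2, 8.06 and 15.1 CPM. On NCD it was at 5.35, 5.29 and 7.18 CPM at 22 °C and 9.63, 6.06 and 7.86 CPM at 4 °C. Slc25a25 lay between 9.72 and 28.0 CPM, overlapped in all groups and was not called.

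**Figure D4:**
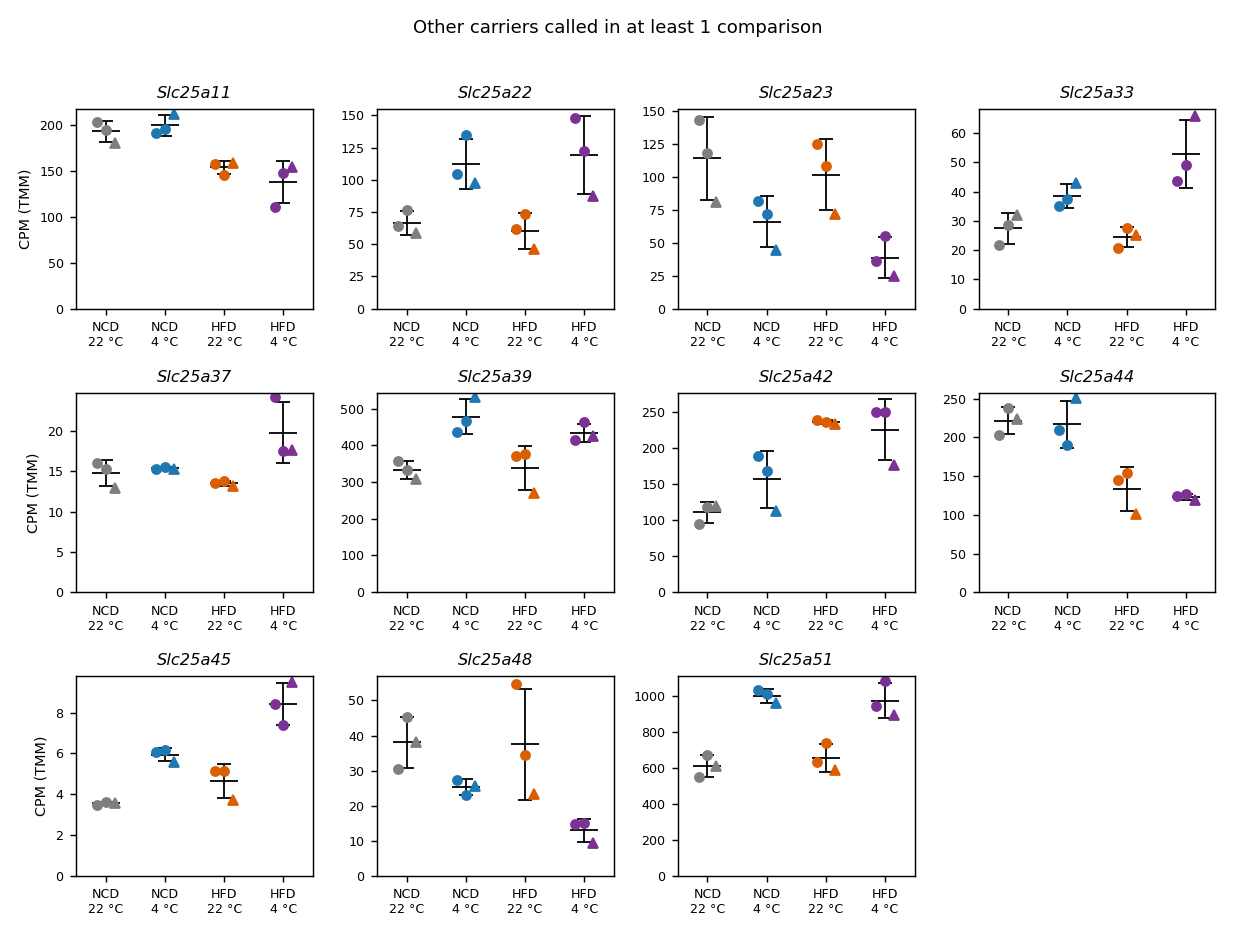
CPM (TMM-scaled, linear axis from 0) of the other 11 carriers called in at least 1 comparison, with 1 point per library (circles for batch 1, triangles for batch 2) and the mean ± SD of 3 libraries. Slc25a51 and Slc25a22 are higher in every cold library, and Slc25a44 and Slc25a11 are lower in every HFD library.

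Of the 3 tested carriers that serve respiration directly, none was called in any pairwise comparison, by edgeR or DESeq2. By edgeR, 15.5% of all tested genes were called at least once, and 3 carriers are too few to differ from that share. None of the 3 had an unadjusted p under 0.05 in those comparisons. In the 4-group test Slc25a5 had an unadjusted p of 0.0420 and an adjusted p of 0.115 (edgeR). Slc25a5 was at 471, 383 and 446 CPM on NCD at 22 °C, 476, 455 and 589.9 CPM on NCD at 4 °C, 382, 365 and 318 CPM on HFD at 22 °C, and 377, 402 and 518 CPM on HFD at 4 °C. Slc25a3, the phosphate carrier, was at 292, 345 and 302 CPM, 275, 299 and 312 CPM, 271, 269 and 289.7 CPM, and 238, 278 and 262 CPM in the same order. At 22 °C the HFD libraries of both lay below the NCD libraries, and the groups overlapped in the other comparisons. With Slc25a4, their log2 fold changes lay between -0.46 and 0.28. The UCP-like Slc25a30 was at 11.1, 12.96 and 9.87 CPM on NCD at 22 °C, 12.5, 10.7 and 14.2 CPM on NCD at 4 °C, 12.4, 16.4 and 13.4 CPM on HFD at 22 °C, and 29.7, 11.3 and 15.9 CPM on HFD at 4 °C. The high value on HFD in the cold was that of 1 library. Slc25a14 and Slc25a27 lay between 1.09 and 4.21 CPM. None of the 3 tested UCP-like carriers was called, and the same share of all genes applies to them. Ucp1 was called higher with cold (1.96 ± 0.17 on NCD and 0.92 ± 0.17 on HFD) and with HFD at 22 °C (0.74 ± 0.17).

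Slc25a4 and Slc25a12, both abundant in muscle, were highest in the 4 libraries with the most skeletal muscle RNA. Slc25a4 was at 663, 579, 801 and 497 CPM in those and between 268 and 452 CPM in the other 8, and Slc25a12 at 64.3, 43.1, 72.2 and 27.7 CPM against 8.43 to 13.8 CPM. With cold, the log2 fold changes of the muscle markers were negative for 12 of 12 on NCD (median -0.98) and 11 of 12 on HFD (median -1.72), without passing the test. With the muscle score as a term in the fit, 24 of the 26 carrier calls were kept.

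**Figure D5:**
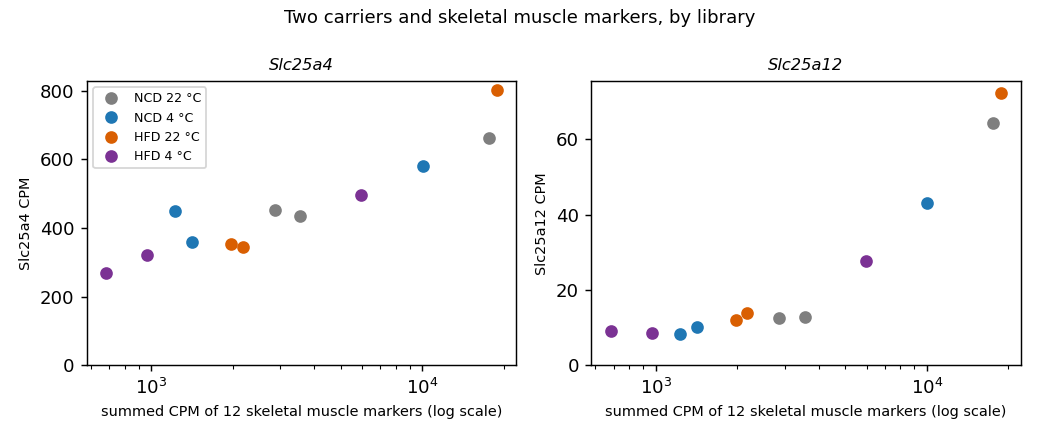
CPM of Slc25a4 and Slc25a12 (linear axes from 0) against the summed CPM of 12 skeletal muscle markers (log scale), with 1 point per library coloured by group. The 4 libraries from 5963 to 18782 CPM of muscle markers hold the highest values of both carriers.

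Cold on NCD was followed by more rises than falls. In it, 5 of 40 carriers were higher (Slc25a17, Slc25a34, Slc25a39, Slc25a45 and Slc25a51), where 3.72% of all genes were, and 2 were lower (Slc25a1 and Slc25a10), where 2.55% were. Brown adipocyte markers, in sum, did not overlap between the temperatures. Of 10 markers, 9 had a positive log2 fold change, 5 were called higher and 5 were not called. Ucp1 (4203 to 16357 CPM) and Fabp4 (5748 to 8765 CPM) had the highest levels, while Pparg went from 297 to 327 CPM and Adipoq from 624 to 520 CPM. The part of these markers in the carrier changes was not tested. The median log2 fold change was 0.09 over the carriers and -0.01 over all genes. With the replicate block within diet, 11 were called, adding Slc25a20, Slc25a22, Slc25a23 and Slc25a33. Without the library of each group with the most muscle RNA, 3 were called (Slc25a10, Slc25a17 and Slc25a34). Slc25a39 was called in 2 of 12 fits with 1 library left out, those without replicate 1 or 3 of HFD at 22 °C, and its log2 fold change was between 0.45 and 0.59. Slc25a45 lost its call without any 1 library of NCD at 22 °C or without replicate 1 or 2 of NCD at 4 °C (0.71 to 0.79).

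With cold on HFD, 6 carriers were higher (Slc25a17, Slc25a22, Slc25a33, Slc25a37, Slc25a45 and Slc25a51) against 5.39% of all genes, and 4 lower (Slc25a1, Slc25a23, Slc25a32 and Slc25a48) against 4.19%. The medians were -0.05 for the carriers and -0.04 for all genes. The block within diet called 15, adding Slc25a12, Slc25a24, Slc25a34, Slc25a35 and Slc25a47, and leaving out the libraries with most muscle RNA left 5 (Slc25a1, Slc25a17, Slc25a22, Slc25a32 and Slc25a48). Calls were lost without 1 library for Slc25a22 (replicate 3 at 22 °C or 1 at 4 °C, 0.82 to 1.17) and Slc25a51 (replicate 2 at 4 °C, 0.49). They were also lost for Slc25a23 (replicates 1 or 2 at 22 °C, 1 or 3 at 4 °C, -1.74 to -1.15), Slc25a32 (replicates 1 or 2 at 22 °C or any at 4 °C, -0.80 to -0.60) and Slc25a37 (any at 22 °C or replicate 1 at 4 °C, 0.41 to 0.63).

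For HFD at 22 °C, 2 carriers were higher (Slc25a34 and Slc25a42), where 0.992% of all genes were, and 3 lower (Slc25a1, Slc25a10 and Slc25a44), where 1.09% were. The medians were -0.07 for the carriers and 0.03 for all genes. Endothelial markers were higher on HFD, at 747 to 989 CPM in sum against 532 to 661 CPM, as were Schwann cell markers, at 249 to 327 CPM against 149 to 173 CPM. Erythroid markers were lower on HFD, at 794 to 1167 CPM in sum against 1210 to 1774 CPM. The part of all these markers in the carrier changes was not tested. Batch 1 alone called Slc25a10 and Slc25a42, and without the libraries with most muscle RNA 1 was called, Slc25a10. Calls were lost for Slc25a1 without replicate 1 or 3 of NCD or 2 or 3 of HFD at 22 °C (-1.41 to -1.08), and for Slc25a42 without any NCD library at 22 °C or replicate 2 of HFD at 22 °C (0.95 to 1.14). Slc25a44 kept its call in 5 of 12 such fits (-0.85 to -0.57), being lost without any NCD library or replicates 2 or 3 of HFD at 22 °C, or replicates 2 or 3 of HFD at 4 °C.

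For HFD at 4 °C, 0 carriers were higher, where 2.06% of all genes were, and 4 were lower (Slc25a1, Slc25a11, Slc25a32 and Slc25a44), where 2.69% were. The count of 0 also held in DESeq2, while at an unadjusted p under 0.05 there were 5 higher (Slc25a24, Slc25a33, Slc25a37, Slc25a42 and Slc25a45). Without replicate 2 of HFD at 4 °C, Slc25a24 was called higher. The medians were -0.19 for the carriers and 0.02 for all genes. Brown adipocyte markers were at 21249 to 26280 CPM in sum on HFD against 29599 to 33189 CPM on NCD. Of these 10 markers, 2 had a positive log2 fold change (median -0.34) and 1 was called lower. Endothelial markers were at 989 to 1099 CPM in sum on HFD against 750 to 838 CPM on NCD. Macrophage markers were at 115 to 251 CPM against 85.7 to 113 CPM, with 2 of 7 called higher. The part of all these markers in the carrier changes was not tested. Batch 1 alone called Slc25a1 and Slc25a32. Slc25a44 lost its call without replicate 3 of NCD or 1 or 3 of HFD at 4 °C (-0.90 to -0.71). Slc25a11 kept it in 5 of 12 fits (-0.61 to -0.37), being lost without replicate 2 or 3 of NCD at 22 °C, any of NCD at 4 °C, replicate 2 of HFD at 22 °C or 1 of HFD at 4 °C.

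Whether diet changed the response to cold was tested as an interaction. By edgeR it was called for 0 of 40 carriers and 0.00% of all genes. At an unadjusted p under 0.05 it held for 8 carriers against 6.52% of genes, namely Slc25a1 (-0.78), Slc25a10 (1.88), Slc25a26 (-0.31), Slc25a32 (-0.63), Slc25a33 (0.62), Slc25a34 (-1.96), Slc25a37 (0.48) and Slc25a48 (-0.93), on the log2 scale. The DESeq2 test called Slc25a10 (1.91, adjusted p = 0.0175) and Slc25a34 (-1.93, adjusted p = 0.00798), where it called 0.412% of all genes. By edgeR these were at adjusted p = 0.525 and 0.475, and with no filter on counts edgeR called Slc25a34. The calls thus rest on the method and, for Slc25a34, also on the filter.

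Because carriers reach the inner membrane through the TIM22 route, its 10 components were read in the same fits. With cold on NCD 3 were higher (Timm8a1 0.73, Timm10 0.56 and Timm8b 0.53), where 3.72% of all genes were, with a median of 0.39 against -0.01 over all genes. With cold on HFD 2 were higher (Timm8a1 0.87 and Timm22 0.64), where 5.39% of all genes were, with a median of 0.37. On HFD at 22 °C Timm22, the channel subunit, was lower (-0.84), as were 1.09% of all genes, and the medians for HFD were -0.08 at 22 °C and -0.09 at 4 °C.

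Some carriers share exon bases with another annotated gene, and the strand used in counting is not given in the sources used here. Of the 16 called carriers, 5 overlap a gene on the other strand (Slc25a10, Slc25a11, Slc25a23, Slc25a33 and Slc25a37), and Slc25a51 contains a miRNA gene on its own strand. Reads in the shared bases may not be told apart from reads of the partner. These are 92 to 381 bases per partner, against 1887 to 6021 merged exon bases per carrier. The pseudogene Slc25a5-ps held at most 6 counts.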

How the data were processed

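Total RNA depleted of ribosomal RNA was sequenced in pairs of reads (Illumina TruSeq). The authors filtered reads with cutadapt and quantified them with salmon on GENCODE M22, alone or with RNAcentral 5; which of these gave the table, and the versions of the tools, are not given in the sources used here. The authors deposited estimated counts of each gene, held as whole numbers, in 1 table of 12 libraries.

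Counts were tested in edgeR 4.0.16 (R 4.3.3, limma 3.58.1) over 16737 genes passing filterByExpr (minimum count 10), with TMM scaling, 1 mean per group and all 12 libraries in the quasi-likelihood fit. P-values were adjusted by Benjamini-Hochberg over all tested genes. Pairwise calls required an adjusted p under 0.05 with a log2 fold change beyond 0.5 in either direction, the 4-group test an adjusted p under 0.001, the interaction an adjusted p under 0.05. CPM are TMM-scaled. Levels per kb divide them by merged exon length in GENCODE M21, in which all 46 carriers were matched by Ensembl gene ID. The script was tested on simulated data. Alternatives were DESeq2 1.42.0, its size factors, no filter, a mean of at least 10 counts, a batch term, batch 1 alone, the replicate block, the 6 libraries compared, a muscle score, and 1 library left out.

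Replicate numbers come from the sample titles. Deviations from group means of same-numbered libraries correlated at 0.219, 0.456 and 0.281 on NCD and 0.155, 0.217 and 0.386 on HFD. Correlations of unlike numbers reached 0.0439 on NCD and 0.134 on HFD. Muscle RNA and batch also follow the numbers within diet, and their part was not tested. Across diets several same-number correlations were negative. Muscle-rich replicate 3 of HFD without cold correlated with replicate 2 of NCD at 0.374 without cold and 0.418 with cold. The replicate block assumes pairing by number, and its p-values rest on that assumption.

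Carriers and gene lists were chosen with earlier results of these data known. Named carriers are those called in any test and the 3 of each class with the highest level per length, the others being given by counts and ranges; genes outside the family were named from the lists only if called in a pairwise comparison, beside Ucp1 and markers. Library totals limit precision to the counting error of each gene. A tested carrier is counted in the totals and is not reported here.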

Additional observations from a re-analysis of the deposited data

How the results depend on the processing

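None of the 26 called changes reversed under any alternative run, and all 26 had the same sign in both batches. Those runs and batches reuse the libraries from which the 26 were called, so their signs are not independent support. Batch 2 holds 1 library of each group. DESeq2, the batch term, a mean of at least 10 counts and the replicate block over all groups kept all 26; DESeq2's size factors kept 25, no filter 23, the muscle term 24, the 6 libraries compared 19, batch 1 alone 15, and leaving out the most muscle-rich library of each group, chosen after seeing the data, 12. Counts of called carriers moved as follows. Cold on NCD went from 7 to 11 with the replicate block (over all groups or within diet) and to 3 without the muscle-rich libraries. Cold on HFD went from 10 to 6 in the 6 libraries compared and to 5 without the muscle-rich ones, and to 15 with the block within diet. HFD at 22 °C went from 5 to 2 in batch 1 alone and to 1 without the muscle-rich libraries, and HFD at 4 °C from 4 to 2 in batch 1 alone. The interaction went from 0 to 2 with DESeq2 and to 1 with no filter. The 4-group count went from 5 to 16 with DESeq2 and 12 with no filter, and to 0 in batch 1 alone or without the muscle-rich libraries; Slc25a32 was not among those called by it with the batch term or the replicate block. Batch 1 alone and the fit without muscle-rich libraries hold 8 libraries; the cause of the other moves was not tested. With 1 library left out the counts were 5 to 9 (cold on NCD), 7 to 12 (cold on HFD), 2 to 6 (HFD at 22 °C), 2 to 5 (HFD at 4 °C), 0 to 0 (interaction) and 2 to 4 (4 groups). The block made no other count move by over 1.5 times.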

Other observations

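Among 15 inner membrane transporters outside the family, the mitochondrial pyruvate carrier moved most with diet. Mpc1 was called lower with cold on HFD (log2 fold change -0.71), with HFD at 22 °C (-0.81) and with HFD at 4 °C (-1.29), and its partner Mpc2 with HFD at 4 °C (-0.82). In these comparisons 4.19%, 1.09% and 2.69% of all genes were called lower. With cold on HFD 3 of the 15 were called lower, the others being Abcb8 (group means 182 to 114 CPM) and Abcb10 (46.7 to 31.5 CPM). Letm1, a cation transporter of the inner membrane, was called higher with cold on NCD (0.63). Of 12 shuttle and carnitine enzymes, the cytosolic malate dehydrogenase Mdh1 was called lower with HFD at 22 °C (-0.58) and 4 °C (-0.84). The glycerol phosphate shuttle enzymes were also lower, Gpd1 with HFD at 4 °C (-1.34) and Gpd2 with cold on HFD (-0.83). Got1, the cytosolic aspartate aminotransferase, was called higher with cold on HFD (1.91). Mtch1, a family member by structure in the outer membrane, was called lower with HFD at 4 °C (-0.63). These comparisons share libraries with each other.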
